A study of Mus musculus with 4 samples.

Results

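Voltage-gated and related ion channels were examined in neurospheres, free-floating balls that neural stem cells and their progeny form in culture, from embryonic mouse forebrain. The members were all probe sets of the MOE430A and MOE430B arrays that were annotated with a single symbol of a Kcn, Scn, Cacna, Cacnb or Cacng gene, which gave 252 probe sets for 119 symbols out of 35041 single-symbol probe sets for 18193 symbols. There were 84 potassium channel symbols with 167 probe sets, 11 sodium channel symbols with 30 and 24 calcium channel symbols with 55. All of the 119 symbols were found by gene identifier in a RefSeq gene table, and 3 of them, Kcnq1ot1, Kcnmb4os1 and Kcnmb4os2, are non-coding RNAs named after a neighbouring channel gene. They met the rule, so they are counted among the potassium channel symbols and in all totals, and are described in a paragraph of their own.

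The wild-type group was 1 RNA sample of neurospheres from E12.5 forebrain, described as ventral telencephalon, and the knockout group was 1 RNA sample labelled E2F4 knockout from the same stage and region. The labels name no strain, allele, passage or number of pooled embryos. Each RNA was hybridised once to each array design, which makes 4 arrays. With 1 sample per genotype no value below carries an error across samples or a p-value, and the spread between cultures of 1 genotype is unknown. In cultures of mixed cells, fewer cells of a type and less RNA per cell cannot be told apart.

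Many ion channels of these families open in response to voltage or to ligands, and others carry leak currents or open on membrane stretch. Each pore lets mainly a single kind of ion cross the membrane. Sodium channels carry the rising phase of the action potential, potassium channels set the resting potential and end the action potential, and calcium channels couple electrical activity to transmitter release and to gene expression. The pores are formed by alpha subunits, and auxiliary subunits set the trafficking and gating of many of them. Many of these genes are switched on as neural progenitors mature into neurons.

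A probe set was counted as above the median where its signal was at or above the median of all non-control probe sets of its design, which was 736 on MOE430A and 942 on MOE430B. This median is a rank within the array and not a detection call. On this measure 61 of 252 channel probe sets, or 24.2%, were above the median in both samples, against 46.8% of all single-symbol probe sets. A further 18 were above it in the wild type alone, 16 in the knockout sample alone and 157 in neither. The share in both samples was 18.2% on MOE430A, where all single-symbol probe sets gave 46.9%, and 31.3% on MOE430B, where they gave 46.8%. The median channel probe set on MOE430A had a signal of 304 in wild-type and 341 in knockout neurospheres, and on MOE430B of 791 and 585, all of which lie below the median of the design.

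By gene, 48 of 119 symbols, or 40.3%, had at least 1 probe set above the median in both samples, against 55.9% of all genes. Another 17 had a probe set above it in 1 sample only, and 54 had none. Among the classes, the calcium channel alpha2delta subunits had the highest share of probe sets above the median in both samples, 5 of 12, apart from the non-coding RNAs with 4 of 8. The sodium channel alpha subunits had the lowest, 2 of 24, followed by the potassium channel auxiliary subunits with 3 of 24 and the inward rectifiers with 4 of 31. The closest calls at the threshold were Kcnj6, at 748 and 752 on MOE430A, just inside, and Kcnmb2, at 733 in wild-type and 1019 in knockout neurospheres, just outside.

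**Figure D1:**
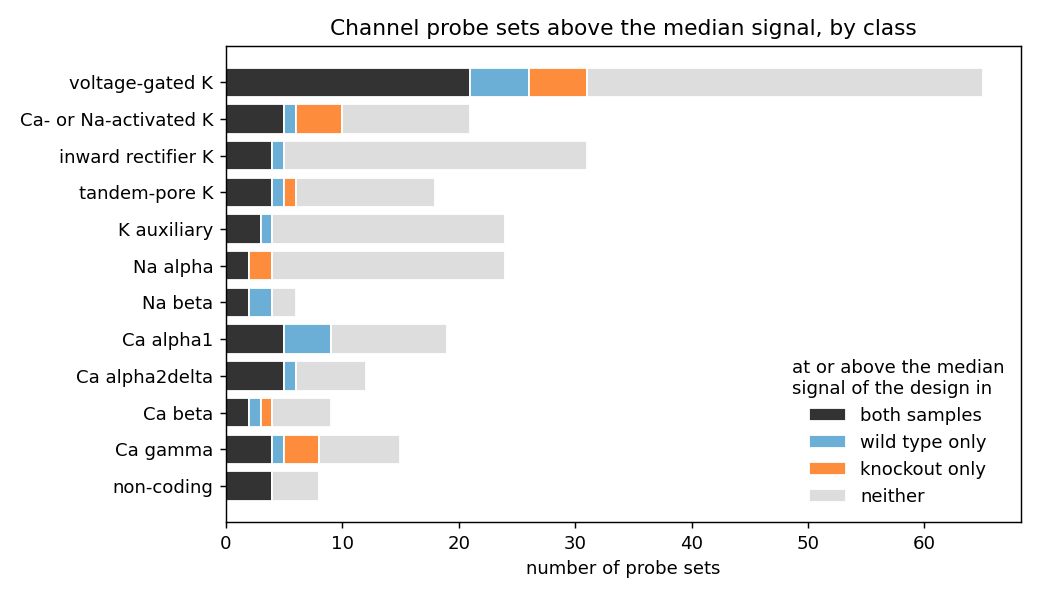
Number of channel probe sets (horizontal axis) by class of subunit (vertical axis), divided into those at or above the median signal of their design in both samples, in 1 sample only and in neither. More than 50% lie in neither in every class except the sodium channel beta, alpha2delta and gamma subunits and the non-coding RNAs, with 157 of 252 in all.

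Log2 ratios, knockout over wild type, were taken within each design and centred on the median ratio of its probe sets above the median in both samples. The channel genes as a group lay close to 0, with a median log2 ratio of -0.03 over 48 genes, beside 0.00 over all 10171 genes measured in this way. Of the 48 genes, 20 were higher in the knockout sample and 28 lower, so 41.7% were higher against a background of 49.8% of all genes. The 31 potassium channel symbols had a median of -0.01, with 14 higher and 17 lower. This count holds 2 of the non-coding RNAs, both lower, and without them the median was -0.0057. The 13 calcium channel genes had a median of -0.19, with 5 higher and 8 lower, and the 4 sodium channel genes one of -0.42, with 1 higher and 3 lower. The sodium channel median rested on few probe sets, and was -0.06 over the genes above a floor at the 30th percentile and -0.11 with no floor.

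Of the 61 channel probe sets above the median in both samples, 1 differed by at least 2-fold, a probe set of Cacna2d1 that was higher in the knockout sample. The background over all single-symbol probe sets was 1.42% at least 2-fold different in either direction, and 1 of 61 is 1.64%, a share near that background. By design it was 0 of 25 on MOE430A, background 0.461%, and 1 of 36 on MOE430B, background 2.76%. At 1.5-fold, 5 of 61 differed, or 8.20%, against 9.47% of all. On MOE430A 3 of 25 channel probe sets on MOE430A differed, all lower in the knockout sample, against a background of 5.34%, and 2 of 36 differed on MOE430B against a background of 15.2%. These 5 were Scn3b, Cacna1d and Cacna1h on MOE430A and Kcnt1 and Cacna2d1 on MOE430B.

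The spread of all probe sets depended on the design and on the brightness. On MOE430A the central 95% of log2 ratios ran from -0.60 to 0.59, and on MOE430B from -0.86 to 0.84. Channel probe sets were dim even among those above the median, since 37 of 61 lay within 2-fold of it, or 60.7%, against 34.0% of all. When each design was divided at 2-fold of its median, 4 of 61 channel probe sets, or 6.56%, lay outside the central 95% of their own range of brightness, where 5 in 100 of all probe sets lie by construction. They belonged to Scn3b, Cacng4, Kcnt1 and Cacna2d1.

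**Figure D2:**
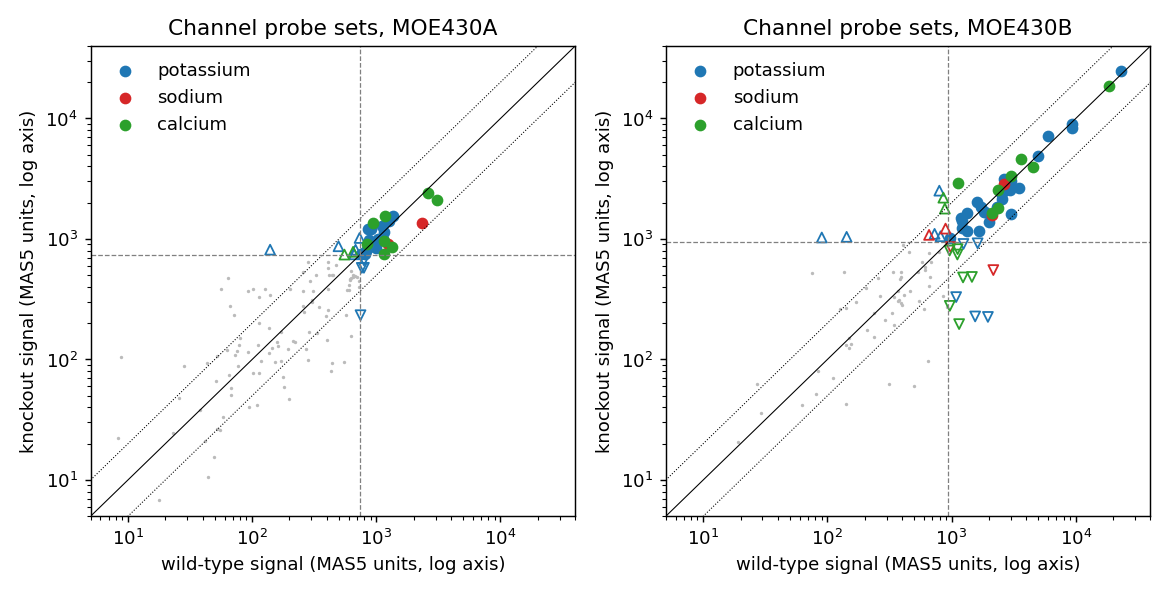
Signal of each channel probe set in the wild type (horizontal log axis) and the knockout sample (vertical log axis) in MAS5 units, for MOE430A and MOE430B. Filled circles are above the median of the design (dashed lines) in both samples, open triangles in 1 sample only, pointing down for the wild type and up for the knockout, and grey points in neither; dotted lines mark 2-fold. The filled circles follow the diagonal and 1 of 61, of Cacna2d1, lies past 2-fold, while the triangles and grey points scatter widely.

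Among voltage-gated potassium channel alpha subunits, which repolarise the membrane after an action potential, 15 of 31 genes were above the median in both samples. The genes were Kcna1, Kcna2, Kcna3 and Kcna6 of the Shaker family, Kcnc1, Kcnd1, Kcnd3, Kcng4, Kcnh1, Kcnh2, Kcnh3, Kcnh8, Kcnq5, Kcns3 and Kcnv2. Their median log2 ratio was -0.01, with 7 higher in the knockout sample and 8 lower, and the genes ranged from -0.23 to 0.33. Kcnq5, a subunit of the slow M-current, was at the upper end with signals of 1193 in wild-type and 1498 in knockout neurospheres. Kcnd3, of the fast inactivating A-type current, had signals of 2658 and 3163 and a log2 ratio of 0.25. Kcnv2, a silent subunit that modifies other channels, had signals of 1203 and 1414 and a log2 ratio of 0.23. At the lower end, Kcnh1, an ether-a-go-go channel, had signals of 2533 and 2153 and a log2 ratio of -0.23. These differences were within the central range of all probe sets of the design. A probe set of Kcnh1 on MOE430A went the other way, with 681 and 814, and was above the median in the knockout sample alone.

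Kcnh3, another ether-a-go-go channel that is largely confined to the forebrain, gave bright signals on MOE430B in both samples. Its probe sets above the median there read 9399 and 9288 in wild-type and 8982 and 8265 in knockout neurospheres, and one on MOE430A read 1117 and 1292. The log2 ratios were -0.06, -0.17 and 0.21, and their mean was -0.01. Another Kcnh3 probe set on MOE430B was dim, at 372 and 304, below the median in both samples. Kcna1, Kcna3 and Kcnh2, all of which repolarise the membrane, had signals of 976, 984 and 1260 in wild-type and 1011, 856 and 1409 in knockout neurospheres. Kcng4, Kcnh8 and Kcns3 had 1862, 1722 and 1343 against 1687, 1852 and 1166, with log2 ratios from -0.20 to 0.11. The remaining genes of the class did not reach the median in both samples. Of the genes best known in neurons, Kcnd2 had 4 probe sets and Kcnq3 had 2, none of them above it in both samples. The brightest of Kcnd2 read 746 and 233 and that of Kcnq3 730 and 1103, each above the median in 1 sample.

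Several voltage-gated potassium channel probe sets were above the median in 1 sample only, and for these the brighter signal over the median gives a bound. Kcns2, a silent modifier subunit, had a signal of 797 in wild-type and 2518 in knockout neurospheres, at least 2.67-fold higher. Kcng1, also a silent subunit, had 1962 and 225, at least 2.08-fold lower, and Kcng2 had 1622 and 921, at least 1.72-fold lower. Each of these rested on 1 probe set, and neither Kcns2 nor Kcng1 had its other probe set above the median in a sample. Kcna2 shows how the probe sets of a gene could differ: 1 read 1549 in wild-type and 228 in knockout neurospheres, at least 1.65-fold lower, while another read 90.1 and 1029, at least 1.09-fold higher.

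Calcium- or sodium-activated potassium channels, which link the membrane potential to ion entry, had 4 of 11 genes above the median in both samples. Kcnt1, the sodium-activated channel Slack, was lower in the knockout sample on both of its probe sets above the median. The first read 3010 in wild-type and 1613 in knockout neurospheres, 1.86-fold lower, and the second 1661 and 1157, 1.43-fold lower. Its mean log2 ratio of -0.71 was the lowest of the potassium channel genes. Another probe set went the other way, with 815 and 1054, and was above the median in the knockout sample alone. Kcnma1, the large-conductance calcium-activated channel, had signals of 905 and 1201 and a log2 ratio of 0.41 on 1 of 5 probe sets, and the others were below the median. Its auxiliary subunit Kcnmb4 had 992 and 836 and a log2 ratio of -0.24, and the small-conductance channel Kcnn1 had 1039 and 1007 and one of -0.04. Both probe sets of Kcnmb2, another auxiliary subunit, were above the median in the knockout sample alone, with 496 against 870 and 733 against 1019.

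Inward rectifiers, which hold the resting potential, had 4 of 15 genes above the median in both samples. All 4 had log2 ratios above 0, from 0.01 to 0.36, where 49.8% of all genes were higher. A probe set of Kcnj15 went the other way, with 1089 in wild-type and 329 in knockout neurospheres, and was above the median in the wild type alone. Kcnj11, the pore of the ATP-sensitive potassium channel, read 23118 in wild-type and 24977 in knockout neurospheres on MOE430B, and 410 and 570 on its other probe set on MOE430A. Of its regulatory partners, Abcc8 was below the median on both of its probe sets, and Abcc9 was above it in both samples on 2 of 3, with 2947 and 1122 in wild-type and 3199 and 1461 in knockout neurospheres. Kcnj3 and Kcnj6, subunits of the G protein-gated channel, had 1362 and 748 in the wild type against 1547 and 752, log2 ratios of 0.19 and 0.01. The Kcnj6 signals were thus nearly equal and just above the median of 736. Another Kcnj6 probe set on MOE430A read 719 and 450, lower in the knockout sample and just below the median in the wild type. Kcnj13, an inward rectifier of the choroid plexus and other epithelia, had 1597 and 2045 and a log2 ratio of 0.36. Of the choroid plexus markers, 1 of 5 was above the median in both samples, Clic6 with a log2 ratio of 0.00, and the defining marker Ttr was below it in both samples on all 4 probe sets. Folr1, of the same list, read 530 and 957 and was above it in the knockout sample alone, the direction of Kcnj13, and Aqp1 and Kl were below it in both. The part of these markers in the Kcnj13 ratio was not tested. Kcnj10, the channel of mature astrocytes, had 578 and 374, and Kcnj8, of pericytes, 308 and 370, all below the median.

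Tandem-pore channels, which carry background leak currents, had 4 of 12 genes above the median in both samples. Their log2 ratios lay between -0.09 and 0.18. Kcnk10 read 4992 in wild-type and 4898 in knockout neurospheres, Kcnk16 2632 and 2479, Kcnk6 1219 and 1241 and Kcnk2, a channel opened by membrane stretch, 872 and 987. Kcnk1 was below the median on both probe sets, the brighter at 328 and 506. Among the auxiliary subunits of potassium channels, Kcnip1 and Kcnip3, calcium sensors that bind A-type channels, had log2 ratios of -0.04 and -0.01, and the Kcnip3 probe set read 1146 and 1134. The 6 probe sets of the Kcnab genes and the 6 of the Kcne genes, together with those of Kcnip2 and Kcnip4, were below the median in both samples.

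Of the sodium channel alpha subunits, which form the pore, 2 of 8 genes were above the median in both samples, and both were lower in the knockout sample. Scn3a, the subunit best known from embryonic brain, had signals of 2110 in wild-type and 1594 in knockout neurospheres and a log2 ratio of -0.40. Scn8a had 1236 and 908 and a log2 ratio of -0.44 on MOE430A. A probe set of Scn8a on MOE430B read 659 and 1082 and was above the median in the knockout sample alone, which is the opposite direction. Scn2a reached the median in the knockout sample alone, with 895 and 1219 on MOE430B. Another Scn2a probe set on MOE430B went the other way, with 924 and 273, its wild-type signal just below the median of 942. None of the 3 probe sets of Scn1a or the 5 of Scn9a reached the median in either sample. The brightest of these read 574 and 641 for Scn1a and 612 and 558 for Scn9a.

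Among the sodium channel beta subunits, which are also cell adhesion proteins, Scn3b had the lowest ratio of all channel genes. Its signals on MOE430A were 2313 in wild-type and 1354 in knockout neurospheres, a log2 ratio of -0.77 or 1.71-fold lower. This lay below the central 95% of probe sets of like brightness on MOE430A, from -0.52 to 0.54. The other Scn3b probe set was below the median in both samples, at 647 and 502. Scn2b had 2641 and 2848 and a log2 ratio of 0.11, while another of its probe sets read 2170 and 552, at least 2.30-fold lower.

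Calcium channel alpha1 subunits form the pore, and 5 of 9 genes were above the median in both samples, 3 of them lower in the knockout sample. Cacna1d, an L-type channel, had 1326 in wild-type and 859 in knockout neurospheres, 1.54-fold lower. Cacna1h, a T-type channel, had 1159 and 753, also 1.54-fold lower, and its knockout signal lay just above the median of 736. Cacna1f, an L-type channel best known from the retina, had 1157 and 956, and a log2 ratio of -0.27. On the other side, Cacna1b, the N-type channel of nerve terminals, had 3005 and 3343 and a log2 ratio of 0.16, and the L-type Cacna1c had 836 and 904 and one of 0.12. In this class 4 probe sets were above the median in the wild type alone, 1 of Cacna1a, 2 of Cacna1b and 1 of Cacna1c, and 0 in the knockout sample alone. That of Cacna1a read 1237 and 480, and that of Cacna1c 968 and 279, bounds of at least 1.31-fold and 1.03-fold. Cacna1g, a T-type channel, was below the median in both, with 625 and 158.

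The alpha2delta subunits help to carry calcium channels to the cell surface. Cacna2d1 had the highest ratio of the channel genes, with a mean log2 ratio of 0.64, and its 3 probe sets above the median were all higher in the knockout sample. They read 1130, 2355 and 1172 in wild-type and 2932, 2572 and 1559 in knockout neurospheres. The ratios were thus uneven, at 2.60-fold, 1.09-fold and 1.33-fold, and the mean rested largely on the first. A further 2 probe sets were below the median. Cacna2d2 had 2624 and 2398 and a log2 ratio of -0.13, and Cacna2d4 had 2364 and 1804 and one of -0.39.

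Of the calcium channel beta subunits, which bind the pore on the inside of the membrane, Cacnb1 was higher in the knockout sample, with 936 and 1364 on MOE430A and a log2 ratio of 0.55. A second probe set of Cacnb1, on MOE430B, read 859 and 2202 and was at least 2.34-fold higher. Cacnb4 had 2116 and 1645 and a log2 ratio of -0.36, and Cacnb2 had 1459 and 484, above the median in the wild type alone and at least 1.55-fold lower. Cacnb3 was not among the members. The gamma subunits include the TARP proteins, which accompany AMPA-type glutamate receptors. Cacng2, also called stargazin, had 3596 in wild-type and 4579 in knockout neurospheres and a log2 ratio of 0.35, and Cacng7 had 4500 and 3953 and one of -0.19. Another probe set of Cacng2 read 964 and 802 and was above the median in the wild type alone. Cacng4 read 18389 and 18640 on MOE430B and 3066 and 2101 on MOE430A, log2 ratios of 0.02 and -0.54. A probe set of Cacng8 read 883 and 1787, a bound of at least 1.90-fold on the knockout side.

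**Figure D3:**
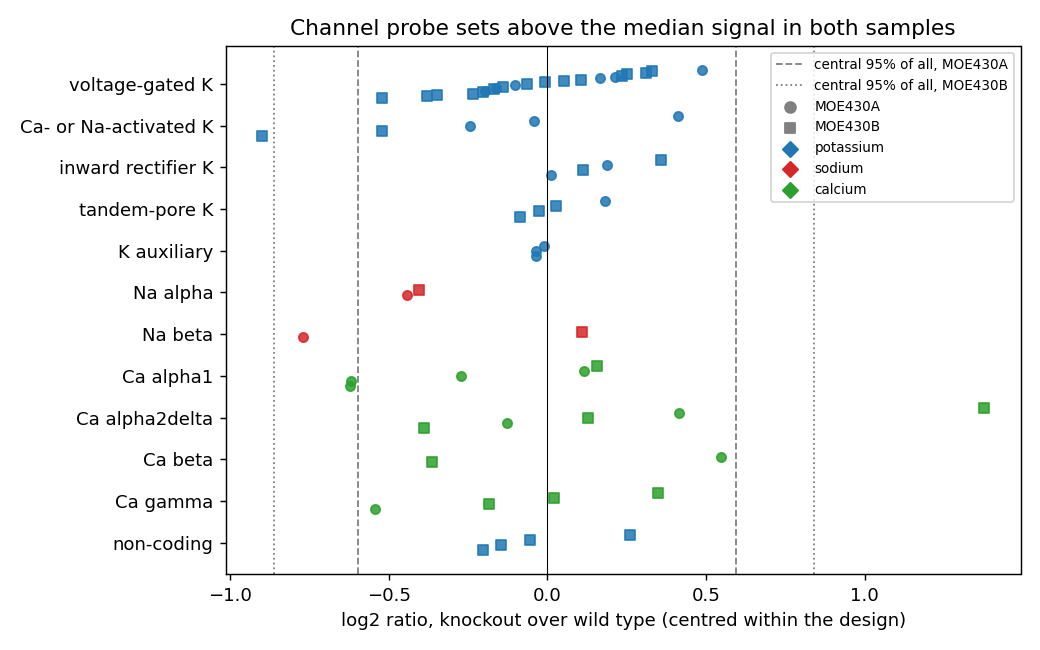
Log2 ratio of knockout over wild type (horizontal axis) for the 61 channel probe sets above the median in both samples, by class (vertical axis); circles are MOE430A, squares MOE430B, and grey lines mark the central 95% of all single-symbol probe sets of each design. Most points lie inside these lines, and the probe set farthest out is that of Cacna2d1 at 1.38.

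Among the non-coding RNAs, Kcnq1ot1, the imprinted antisense transcript of the Kcnq1 locus, had 3 of 6 probe sets above the median in both samples. They read 2930, 5989 and 1841 in wild-type and 2542, 7172 and 1663 in knockout neurospheres, with log2 ratios from -0.20 to 0.26. The probe set of Kcnq1 itself was below the median, at 255 and 276. Kcnmb4os2 had 2501 and 2407 and a log2 ratio of -0.05.

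How far the probe sets of a gene gave like ratios was read from genes with more than 1 probe set above the median. There were 10 such genes with 23 probe sets. All probe sets read the same 2 RNA samples, so this does not measure how far a ratio would hold in other cultures. In 5 of the 10 genes all such probe sets lay on 1 side of 0, against a background of 42.1% of 3956 genes. Of the genes with exactly 2 such probe sets it was 4 of 7, background 52.6%, and with exactly 3 it was 1 of 3, background 30.3%. These were Cacna2d1, on the higher side, and Kcnt1, Kcna6, Kcnd1 and Kcnip1 on the lower. For Kcna2, Kcnc1, Kcnh3, Kcnq1ot1 and Cacng4 the probe sets lay on both sides. The 2 probe sets of Kcna2 read 859 and 2002 in wild-type and 1201 and 1393 in knockout neurospheres, log2 ratios of 0.49 and -0.52 with a mean near 0. Those of Kcna6 read 805 and 2339 in wild-type and 748 and 1835 in knockout neurospheres, those of Kcnc1 1126 and 1334 against 1003 and 1654, and those of Kcnd1 3477 and 3037 against 2673 and 3018. Those of Kcnip1 read 822 and 806 against 800 and 784 and were nearly equal. The pooled SD of log2 ratios between probe sets of a channel gene was 0.39, beside 0.33 over all genes, and most of the single-gene ratios given above are no larger than this. The widest spreads within a channel gene were those of Cacna2d1 and Kcna2.

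**Figure D4:**
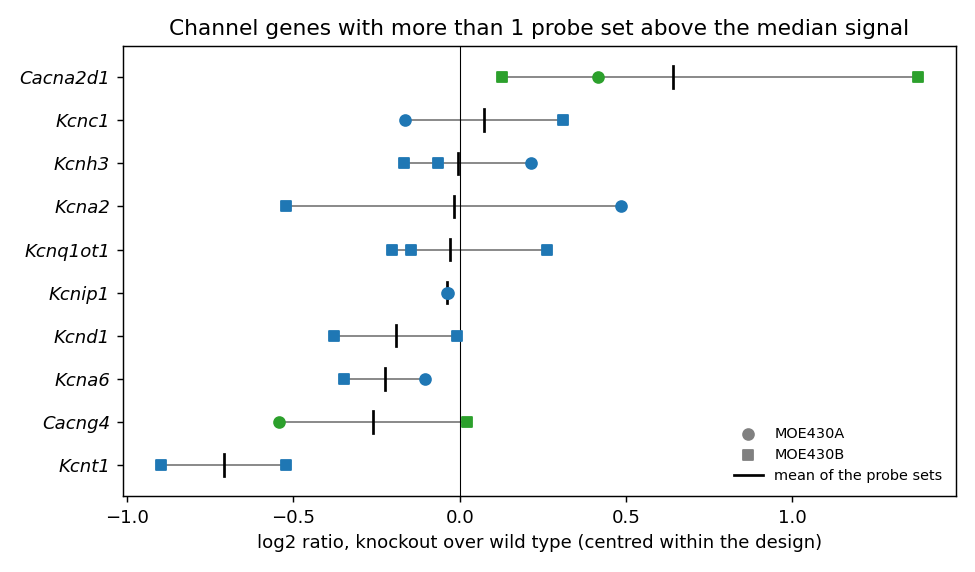
Log2 ratio of knockout over wild type (horizontal axis) of each probe set above the median in both samples for the 10 channel genes with more than 1 (vertical axis), with the mean as a black bar; circles are MOE430A and squares MOE430B. In 5 genes the probe sets lie on both sides of 0, and those of Cacna2d1 spread from 0.13 to 1.38.

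Of the 34 channel probe sets above the median in 1 sample only, 18 were so in wild-type and 16 in knockout neurospheres, so 47.1% were on the knockout side against a background of 50.6%. A bound of at least 1.5-fold was reached by 8 of 34, or 23.5%, against a background of 24.4%. At 2-fold it was 4 of 34, or 11.8%, against 6.49%. These 4 were Kcns2 and Cacnb1 on the higher side and Kcng1 and Scn2b on the lower. All 4 were on MOE430B, which held 23 of the 34 channel probe sets and 2110 of the 3790 in the background. The background share was not divided by design, so the 2 shares are not fully alike. Of these 4 genes, Cacnb1 alone had another probe set above the median in both samples on the same side, while that of Scn2b stood at 0.11.

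Promoter sequences, taken from RefSeq on the assembly GRCm38.p6, were found for 91 of the 119 symbols. The 250 bases before each annotated start were used, 126 windows in all. Windows of channel genes above the median in both samples had a median of 12 CpG dinucleotides and a GC content of 62.0%. Those of channel genes with no probe set above the median had 6 CpG and 53.2%, and all 32851 windows had 6 CpG and 52.4%. This is a description of 36 and 44 genes, and CpG content did not divide single genes. The windows of all genes were not divided by signal in this way, so the difference cannot be called particular to channel genes. Cacna2d1, with the highest ratio, and Cacna2d3, whose probe set was below the median at 610 and 464, are shown because both windows are rich in CpG, with 36 and 30, in capitals. The window of Cacna2d1 is at chr5:15934441-15934690 on the plus strand and that of Cacna2d3 at chr14:29721865-29722114 on the minus strand.
Cacna2d1: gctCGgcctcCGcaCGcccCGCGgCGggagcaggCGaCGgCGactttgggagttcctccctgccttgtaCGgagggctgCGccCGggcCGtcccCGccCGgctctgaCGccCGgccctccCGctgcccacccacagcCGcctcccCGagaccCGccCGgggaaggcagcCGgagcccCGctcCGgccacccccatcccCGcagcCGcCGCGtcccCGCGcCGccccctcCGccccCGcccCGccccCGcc
Cacna2d3: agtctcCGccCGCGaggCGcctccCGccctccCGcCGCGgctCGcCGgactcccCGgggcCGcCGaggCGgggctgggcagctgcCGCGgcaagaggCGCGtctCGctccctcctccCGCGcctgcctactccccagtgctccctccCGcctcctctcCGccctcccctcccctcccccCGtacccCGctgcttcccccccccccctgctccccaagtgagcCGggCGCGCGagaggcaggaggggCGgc

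E2F4 is a DNA-binding repressor, so the same windows were searched for the E2F words TTTCCCGC, TTTGGCGC, TTTCGCGC and TTTGCCGC on both strands. A word was found for 3 of 91 channel genes, or 3.30%, against 2.16% of 27025 genes with a window. They were Kcna3 and Kcna6, which were above the median in both samples with log2 ratios of -0.20 and -0.23, and Kcnh5, which was not, at 29.4 and 36.1. The other 34 genes with a ratio and a window had a median of -0.02 and ran from -0.62 to 0.64, a range that holds both values. A link between word and ratio was not tested. The shares of genes with a word were not matched for GC content, with a median of 58.0% in channel windows and 52.4% in all. A match is a run of letters and not a shown binding site. The windows of Kcna3, at chr3:107035912-107036161 on the plus strand, and Kcna6, at chr6:126740675-126740924 on the minus strand, are printed with the match in capitals, which in both is the reverse complement of TTTCCCGC, with 97 and 121 bases between it and the start.
Kcna3: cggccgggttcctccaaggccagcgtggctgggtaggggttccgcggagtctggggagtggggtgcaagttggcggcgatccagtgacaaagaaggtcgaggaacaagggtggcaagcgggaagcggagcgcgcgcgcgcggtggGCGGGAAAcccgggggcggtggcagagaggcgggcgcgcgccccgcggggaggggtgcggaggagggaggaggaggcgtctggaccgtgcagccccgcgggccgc
Kcna6: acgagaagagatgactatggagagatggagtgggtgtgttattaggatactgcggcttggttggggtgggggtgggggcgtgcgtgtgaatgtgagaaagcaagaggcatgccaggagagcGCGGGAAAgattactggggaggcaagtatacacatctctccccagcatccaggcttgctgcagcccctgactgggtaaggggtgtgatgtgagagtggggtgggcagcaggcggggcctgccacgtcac

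Other genes of ion transport and channel assembly were compared through a list of 56, of which 47 were on the arrays and 27 above the median in both samples. Of these, 10 were higher in the knockout sample and 17 lower, with a median log2 ratio of -0.13, where 49.8% of all genes were higher. Of 52 probe sets, 1 was at least 2-fold different, beside 1.42% of all, a probe set of the chloride transporter Clcn3 at 1478 and 3170, and the other 3 of Clcn3 above the median lay between -0.06 and 0.44. Stim2, the calcium sensor of the endoplasmic reticulum, had 3857 in wild-type and 1977 in knockout neurospheres and a log2 ratio of -0.96 on 1 of 2 probe sets, while the probe sets of Stim1 went opposite ways, at 741 and 967, with the wild type just above the median, and at 849 and 510, above it in the wild type alone. Atp1b3, a subunit of the sodium pump, had 5201 and 3334 and a log2 ratio of -0.64. The sodium leak channel Nalcn was at 0.21 and Rest at 0.11. None of the Hcn, Ryr or Slc8a genes on the arrays was above the median in both samples.

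E2f4 itself, on 1 probe set, read 1812 in wild-type neurospheres and 1535 in those labelled knockout, a log2 ratio of -0.24, and since where this probe set lies relative to the deleted part is not known here, it does not check the label. Markers of neurons, the cells that carry most of these currents, were above the median in 12 of 12 genes, and the knockout signal was the lower in 11 of them, with a median log2 ratio of -0.22. Their summed signal was 248266 in wild-type and 211328 in knockout neurospheres. Progenitor markers were higher in 8 of 9 genes, with a median of 0.21 and sums of 147702 and 161570. Of the marker genes on the arrays, those of astrocytes were above the median in 3 of 6, of oligodendrocytes in 3 of 7, of pericytes and muscle of vessels in 3 of 7, of endothelium in 2 of 6, of microglia in 2 of 5, of red blood cells in 3 of 5 and of other muscle in 1 of 6. The 3 genes of red blood cells all had the lower signal in knockout neurospheres, at a median of -0.51 and summed signals of 279641 and 214986. The 2 of microglia and the 3 of the oligodendrocyte lineage were lower too, with medians of -0.44 and -0.43 and sums of 9192 and 8044 and of 10452 and 10139. Other probe sets of these lists were above the median in 1 sample only. Those of Laptm5, Pdgfra and Mbp were so in the knockout sample, and those of Olig2 and Cnp in the wild type. The 3 of pericytes and smooth muscle were all higher, with a median of 0.29 and sums of 7706 and 9110, and the defining marker Pdgfrb was below the median of the design in both samples. Another probe set of Rgs5, of these 3, read 952 and 713, above the median in the wild type alone. One of Des read 128 and 740, above it in the knockout sample alone. Those of astrocytes, endothelium and other muscle had medians of 0.03, -0.004 and 0.04. Their sums over all probe sets of the list were 18511 and 22029, 7438 and 8846, and 5443 and 4789. Further probe sets of the astrocyte genes Gfap, Gja1 and Slc1a2 were above the median in the knockout sample alone. One of the endothelial gene Flt1, at 244 and 2226, was so too, and no probe set of either list was so in the wild type alone. The part of these cell types in the channel ratios was not tested.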

How the data were processed

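Total RNA was prepared with RNeasy columns and labelled as biotinylated cRNA without amplification, per the labels' protocols. The deposited values are linear intensity values, MAS5 signals scaled per array by the authors; MAS5 comes from the submitters' processing notes, without version or settings. Both arrays of a design were hybridised on 1 day and the designs on 2 days, per the file headers, so each ratio is within a day. Median signals were 735 and 736 on MOE430A and 941 and 942 on MOE430B. Gene names came from the platform annotation, and 1 symbol was attached to 20380 of the 22626 non-control probe sets of MOE430A and to 14661 of the 22511 of MOE430B. No member lay among the 100 probe sets common to both designs.

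Log2 ratios of knockout over wild type were centred within each design on the median of probe sets at or above the floor, the median signal over both arrays, in both samples, a shift of -0.003 and -0.001. Other probe sets gave no ratio; where 1 array was above the floor, its signal divided by the floor was the bound. A gene was the mean over its probe sets. The number of arrays limits the precision. Members and lists were chosen with earlier results of these data known, and alternatives are in the closing section. By the naming rule, signals are given for probe sets at least 1.5-fold different or with such a bound, genes with more than 1 probe set above the floor, the 3 genes farthest from 0 in each class and a list of well-known channel genes; further values were picked with the data in view. Scripts, tested on simulated data, ran in Python 3.11.15 with pandas 2.3.3, numpy 2.4.6, statsmodels 0.14.6 (lowess) and matplotlib 3.10.9. E2F words were sought as exact letters in RefSeq promoter windows.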

Additional observations from a re-analysis of the deposited data

How the results depend on the processing

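The median log2 ratio of the channel genes stayed below 0 in all 13 alternatives, between -0.08 with no floor and -0.02 without the 3 non-coding symbols, an alternative chosen after seeing the data. A floor lowered to the 30th percentile gave different counts: 117 probe sets were above it in both samples, 32 of 80 genes were higher in the knockout sample and 7 probe sets differed by at least 2-fold, or 5.98% beside 4.86% of all, and at a floor of the 70th percentile these were 22, 7 of 18 and 0. With no floor 46 of 119 genes were higher and 62 of 252 probe sets differed by 2-fold, or 24.6%, while 20.3% of all single-symbol probe sets did so. With a pseudocount equal to the floor 47 of 119 genes were higher and 3 probe sets differed by 2-fold, or 1.19% beside 0.973% of all. MOE430A alone had 25 probe sets, 10 of 24 genes higher and 0 probe sets at 2-fold, and MOE430B alone 36 probe sets, 14 of 30 genes and 1 probe set. The floors and single designs count other probe sets, and the pseudocount also shrinks the ratios of dim ones. The sodium channel median of -0.42 over 4 genes was -0.06 with the lower floor, -0.11 with no floor, -0.03 with the pseudocount, -0.61 on MOE430A and -0.15 on MOE430B alone, and 0.11 with the higher floor, which left 1 gene, and the calcium channel median 0.02 on MOE430B alone. Each array's own median, no centring, quantile normalization, a lowess fit (span 0.3), taking each gene's brightest probe set and leaving out _x_at, _s_at and _a_at probe sets gave counts within 1.5 times those of the report. No paired analysis was possible because each genotype had 1 sample. Signals near or below the floor limit what can be said of most channel genes.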
